A study of Mus musculus with 31 samples.

Results

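The genes described here are 10 genes of the NRF2 antioxidant program, Osgin1, Nqo1, Gclc, Gclm, Srxn1, Txnrd1, Hmox1, G6pdx, Ephx1 and Nfe2l2, out of 31172 gene symbols measured in the liver of 31 mice. They were chosen by name as Nfe2l2, which encodes NRF2 itself, and known NRF2 targets other than the glutathione transferases. The choice was made with the high Osgin1 level of Upf3b-ASO treated mice already known, so the values of the genes in the Upf3b-ASO comparisons are given as a description, without p-values.

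NRF2 is a transcription factor that KEAP1 captures in the cytoplasm and hands to a ubiquitin ligase for degradation. When reactive electrophiles or oxidants modify KEAP1, NRF2 escapes, pairs with a small MAF protein in the nucleus, and binds antioxidant response elements near genes for glutathione synthesis, thioredoxin recycling, NADPH supply and quinone detoxification. In liver this program is best known as a defence of hepatocytes against drugs and oxidative stress.

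All mice carried hFIX-R29X, a human coagulation factor IX minigene with a nonsense mutation on a background without the mouse gene, as a model of hemophilia B. Its promoter, that of human transthyretin, is active chiefly in hepatocytes. Males and females of 8 to 14 weeks received 6 subcutaneous doses at intervals of 5 days, and were sacrificed for liver collection 48 h following the final injection. DPBS mice (n = 11) received buffer. Control mice received a GalNAc-conjugated antisense oligonucleotide (ASO) without a mouse target at 15 mg/kg (Control-15, n = 4) or 20 mg/kg (Control-20, n = 6). Upf3b mice received a GalNAc-conjugated ASO against Upf3b, a factor of nonsense-mediated mRNA decay, at 10 mg/kg (Upf3b-10, n = 5) or 20 mg/kg (Upf3b-20, n = 5; replicates 1, 2, 4, 5 and 6). GalNAc is a sugar that binds the asialoglycoprotein receptor of hepatocytes. There was no control ASO group at 10 mg/kg, so Upf3b-10 is set beside Control-15 and the ASO and its dose cannot be told apart in that comparison.

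The unit is named TPM by the authors, who computed it for each mouse. By definition TPM is scaled for transcript length. Within a mouse, however, most values were whole multiples of the same step across genes, as for shares of reads without length scaling. From the steps between low values each library held 1012526 to 7334086 assigned reads, so that 3 reads correspond to 0.406 to 2.94 TPM. Upf3b itself ranged from 2.57 to 16.7 TPM in Upf3b-20 and from 85.3 to 135 TPM in Control-20. In Upf3b-10 it ranged from 3.95 to 53.7 TPM, overlapping Control-15 at 27.1 to 78.7 TPM. The summed level of 5 hepatocyte markers (Alb, Apoa1, Ttr, Apob and Serpina1c) was at least 12685 TPM in every mouse. A pair of livers stood apart, and several values that moved by more than 1.5 times when one of them was left out are given both ways. Others, among them differences and medians near 0, are given once. Upf3b-10 replicate 3 had the fewest reads and the lowest median correlation with its own group (r = 0.677). It had 64 genes at least 4-fold above every other mouse, and Upf3b-20 replicate 2 had 67. In bulk liver, fewer cells of a type and less RNA per cell cannot be told apart.

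Osgin1, Srxn1 and Gclm lie at chr8:119434124-119446256, chr2:152105516-152111376 and chr3:122245557-122270732, all on the plus strand (GRCm38). The 250 bases before a transcript start annotated by RefSeq are shown for them. Osgin1 was chosen as the tested gene with the largest difference on the log2 scale in Upf3b-20, against Control-20 and against DPBS. Srxn1 was chosen as higher there by a small amount, and Gclm as level across groups. The sequences shown are RefSeq sequences of GRCm38.p6, 5′ to 3′. For Osgin1 this start, the one in the RefSeq table, lies inside the gene interval given above, which begins with a transcript that starts further upstream. Capitals mark matches to TGACNNNGC, the core of the antioxidant response element, or to TGAGNNNGC, a related core that was added after the sequences had been seen. Both were searched on both strands.
Osgin1, chr8:119436897-119437146, plus strand: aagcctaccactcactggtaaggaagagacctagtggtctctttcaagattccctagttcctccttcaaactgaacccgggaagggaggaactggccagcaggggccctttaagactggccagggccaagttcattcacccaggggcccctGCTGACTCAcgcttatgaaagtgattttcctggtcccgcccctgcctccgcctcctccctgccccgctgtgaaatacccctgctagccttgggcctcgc
Srxn1, chr2:152105274-152105523, plus strand: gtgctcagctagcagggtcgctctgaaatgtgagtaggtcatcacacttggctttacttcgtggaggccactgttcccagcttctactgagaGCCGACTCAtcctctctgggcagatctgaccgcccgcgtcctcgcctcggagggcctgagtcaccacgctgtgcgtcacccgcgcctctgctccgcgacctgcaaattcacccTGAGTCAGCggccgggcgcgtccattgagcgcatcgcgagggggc
Gclm, chr3:122245307-122245556, plus strand: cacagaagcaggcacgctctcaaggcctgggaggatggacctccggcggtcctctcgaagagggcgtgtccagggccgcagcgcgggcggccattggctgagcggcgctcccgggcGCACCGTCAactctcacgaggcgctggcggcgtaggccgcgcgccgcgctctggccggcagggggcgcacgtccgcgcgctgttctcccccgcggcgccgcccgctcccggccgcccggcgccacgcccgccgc

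In the Osgin1 window the match is on the opposite strand and begins 99 bases before the start. It contains the AP-1 site TGACTCA, which shares letters with the element. One of the Srxn1 matches, 45 bases before the start, also contains an AP-1 site on the opposite strand. Windows from 250 bases before to 50 bases after the start were found for 8 of the 10 genes. TGACNNNGC was in a window of 5 of the 8 (Nfe2l2, Srxn1, Gclm, Txnrd1 and G6pdx), and 6 of the 8 had one or the other core. The Srxn1 match to TGACNNNGC begins 28 bases after the start, outside the sequence shown. The 8 genes had 10 windows, Txnrd1 having more than 1, so these counts of genes are not shares of windows. For comparison, 12.4% of all 32851 windows held TGACNNNGC, 17.6% held TGAGNNNGC, 27.8% held one or the other, and 5.20% held the AP-1 site. A match is a run of letters and not a measured binding site.

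Osgin1, a growth inhibitor induced by oxidative stress, was the gene of the set that differed between groups by more than the mice within a group did, and it did so at 20 mg/kg. It stood at 236, 473, 459, 378 and 427 TPM in Upf3b-20 replicates 1, 2, 4, 5 and 6. The lowest, median and highest values were 25.2, 57.9 and 154 TPM in Control-20, and 11.8, 73.7 and 111 TPM in DPBS. Every Upf3b-20 mouse, female or male, was therefore above every Control-20 and DPBS mouse.

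The means were 394 ± 96.0 TPM in Upf3b-20 (SD, n = 5), 67.9 ± 45.8 TPM in Control-20 (SD, n = 6) and 62.4 ± 35.0 TPM in DPBS (SD, n = 11), a ratio of means of 5.80 to Control-20 and 6.32 to DPBS. The difference from Control-20 was 2.68 on the log2(TPM + 1) scale (SE 0.36, 95% interval 1.93 to 3.43), the 11th highest of 9376 genes tested. The difference from DPBS was 2.79 (SE 0.42, 95% interval 1.93 to 3.66). Without Upf3b-20 replicate 2 they were 2.63 and 2.79. The values rested on 773 to 2462 reads in Upf3b-20 and 62 to 553 in Control-20.

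**Figure D1:**
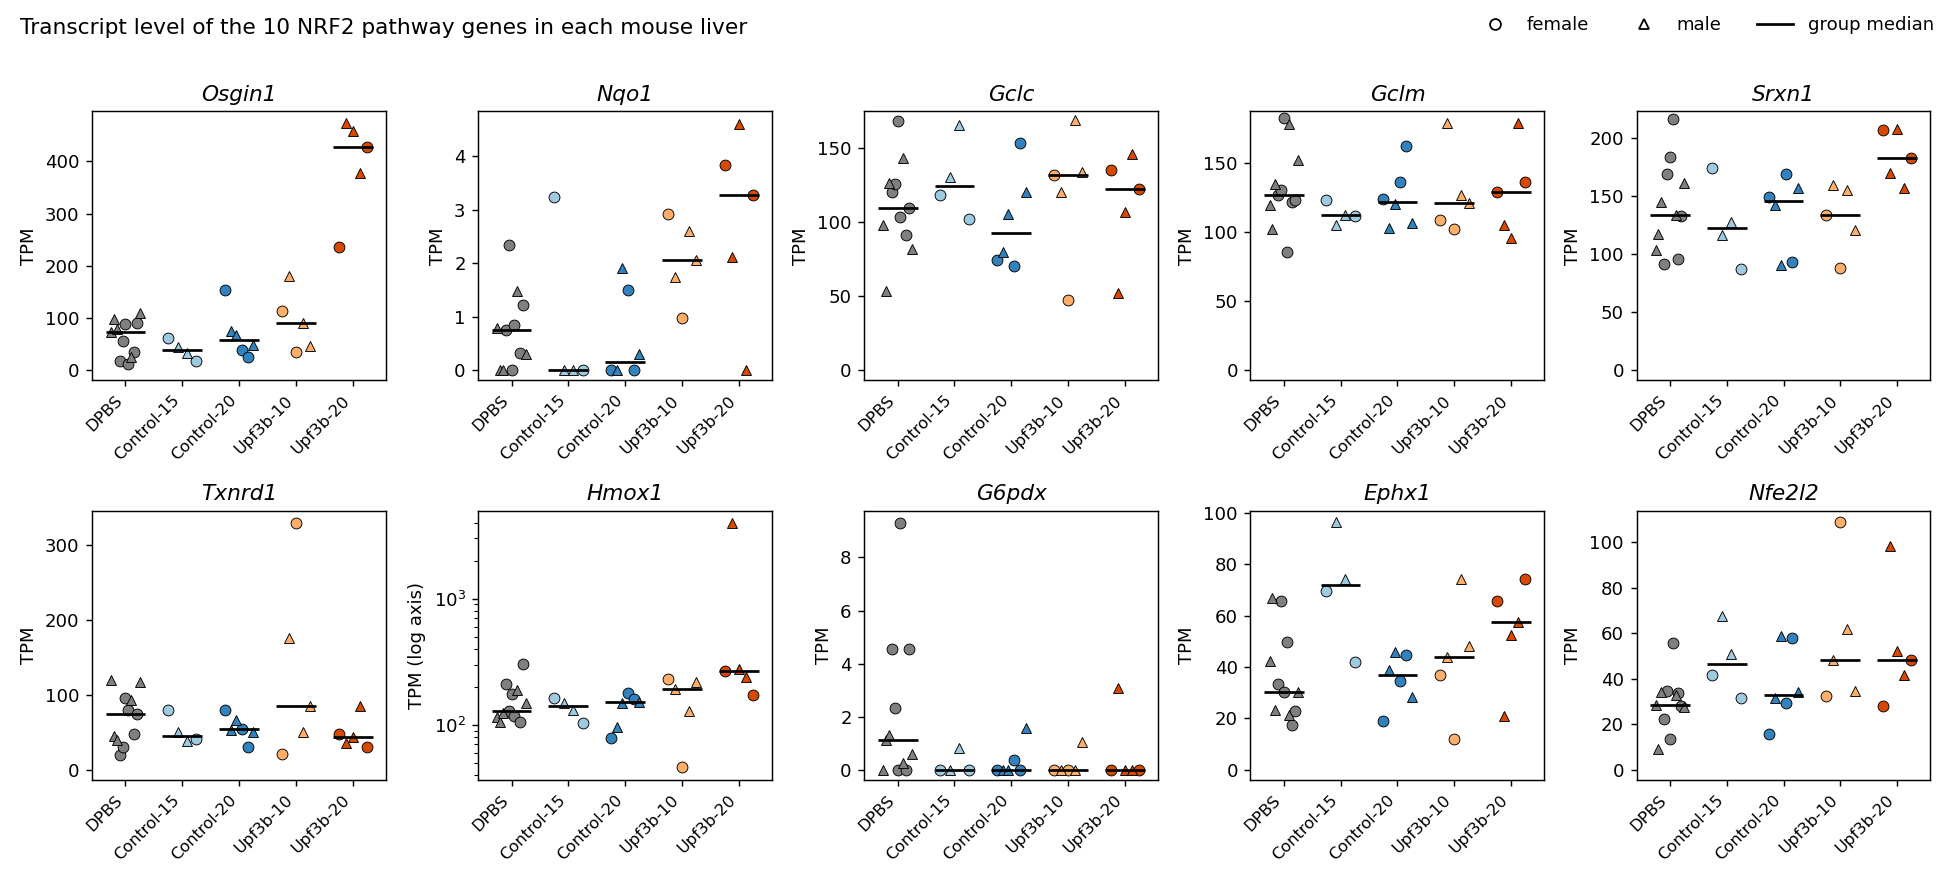
Level of each of the 10 genes in TPM in every mouse, by group (circles females, triangles males, lines group medians; Hmox1 is on a log axis and the others on linear axes). The 5 Upf3b-20 mice sit between 236 and 473 TPM for Osgin1, above the highest Control-20 mouse at 154 TPM, while for Hmox1 a single Upf3b-20 mouse sits at 3968 TPM.

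At 10 mg/kg the Osgin1 values overlapped with the controls. Upf3b-10 replicates 1 to 5 had 113, 181, 35.3, 91.2 and 45.9 TPM, and Control-15 replicates 1 to 4 had 62.6, 44.1, 32.5 and 18.6 TPM. Of the 5 treated mice, 3 were above all Control-15 mice and 2 were within their range. The difference was 1.07 (SE 0.49, 95% interval 0.03 to 2.12), and 1.41 without Upf3b-10 replicate 3. Against DPBS it was 0.53 (SE 0.47, 95% interval -0.44 to 1.49), and 0.23 without Upf3b-10 replicate 1, 0.31 without replicate 2, and 0.75 without replicate 3.

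Osgin1 was higher in Upf3b-20 than in Upf3b-10 by 2.27 (SE 0.41, 95% interval 1.40 to 3.13), and the ranges of these groups did not overlap. The effect at 20 mg/kg against Control-20 exceeded the effect at 10 mg/kg against Control-15 by 1.60 (SE 0.61, 95% interval 0.35 to 2.85), or by 1.34 without Upf3b-10 replicate 3. A difference of effects of similar size was found for Hmox1, at 1.59 (SE 0.86, 95% interval -0.21 to 3.39), with Upf3b-20 replicate 2 included. For Ephx1 it was 1.40 (SE 0.58, 95% interval 0.21 to 2.59). The rest of the tested genes lay between -1.05 (Txnrd1) and 0.43 (Srxn1). Over all genes, limma called 0 of 9187 genes (0%) between the Upf3b doses, with 464 at an unadjusted p under 0.05, and 0 of 9797 genes (0%) for the difference of effects, with 799 at an unadjusted p under 0.05.

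Osgin1 and Upf3b levels can be set side by side in each treated mouse. Upf3b was lowest among the Upf3b-10 mice in replicates 4 and 1, at 3.95 and 5.97 TPM, which lies within the Upf3b-20 range, and Osgin1 in these livers was 91.2 and 113 TPM, below all Upf3b-20 mice. Upf3b-10 replicate 3, with the most Upf3b left at 53.7 TPM, had the least Osgin1 of its group. Replicates 2 and 5 of Upf3b-10 had 20.7 and 23.3 TPM of Upf3b and 181 and 45.9 TPM of Osgin1. In Upf3b-20, replicates 4 and 2 had the least Upf3b, 2.57 and 2.68 TPM. Their Osgin1 values, 459 and 473 TPM, were the highest of the group. Replicate 6 had 7.68 TPM of Upf3b and 427 TPM of Osgin1. The highest Upf3b level of Upf3b-20, 16.7 TPM in replicate 5, went with 378 TPM of Osgin1. The lowest Osgin1 value of that group, in replicate 1, went with 9.37 TPM of Upf3b.

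Markers of other liver cells were checked beside the Osgin1 result. The summed level of 5 endothelial markers was 1535 to 2210 TPM in Upf3b-20, 591 to 1643 TPM in Control-20 and 583 to 2378 TPM in DPBS. Most of this sum was Pecam1, an adhesion molecule of endothelium, at 1485 to 2022 TPM in Upf3b-20. Pecam1 rose against Control-20 (log2 difference 1.27, SE 0.28, limma adjusted p = 0.0201), a call that was lost in 4 of 18 other settings, with adjusted p up to 0.123. It was 1 of 5 tested endothelial markers called, beside 2.52% of all genes. The other 4 (Stab2, Clec4g, Kdr and Lyve1) had differences below 0, and the median of the 5 was -0.08 against Control-20. Against DPBS the median was -0.29, and 0 of 5 were called in limma, beside 1.13% of all genes. An unadjusted p under 0.05 was found for 1 of the 5, beside 11.9% of all genes. The sum of 10 Kupffer cell and macrophage markers was 363 to 730 TPM in Upf3b-20 and 257 to 844 TPM in Control-20. In DPBS it was 229 to 873 TPM. None of its 9 tested genes was called against Control-20 or DPBS, beside 2.52% and 1.13% of all genes. Against each, 7 of the 9 were higher. The median difference was 0.24 against Control-20, beside -0.12 for all genes, and 0.47 against DPBS, beside 0.05. Against DPBS, 2 of the 9 had an unadjusted p under 0.05, beside 11.9% of all genes. The part of endothelial or macrophage RNA in the Osgin1 difference was not tested.

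Of the 8 genes that passed the filter on low values, Osgin1 was the one called at 20 mg/kg, against Control-20 (1 of 8, beside 2.52% of all tested genes) and against DPBS (1 of 8, beside 1.13%). At 10 mg/kg none was called against Control-15 (0 of 8, beside 0.295%) or DPBS (0 of 8, beside 0.376%). Groups without overlap were likewise found for Osgin1 at 20 mg/kg and for no other of the 8. The background share of genes without overlap was 3.48% for Upf3b-20 against Control-20, 0.804% against DPBS, 4.81% for Upf3b-10 against Control-15 and 0.288% against DPBS. Since Osgin1 was part of the reason for choosing these genes, nothing is read from its count. The median difference of the 8 was 0.48 against Control-20, beside -0.12 for all genes tested, and 0.52 against DPBS, beside 0.05. At 10 mg/kg it was 0.09 against Control-15, beside -0.03, and 0.07 against DPBS, beside 0.03. The tested 8 had group medians of at least 5 TPM in all 5 groups, so that none passed only through a group in which it was high.

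**Figure D2:**
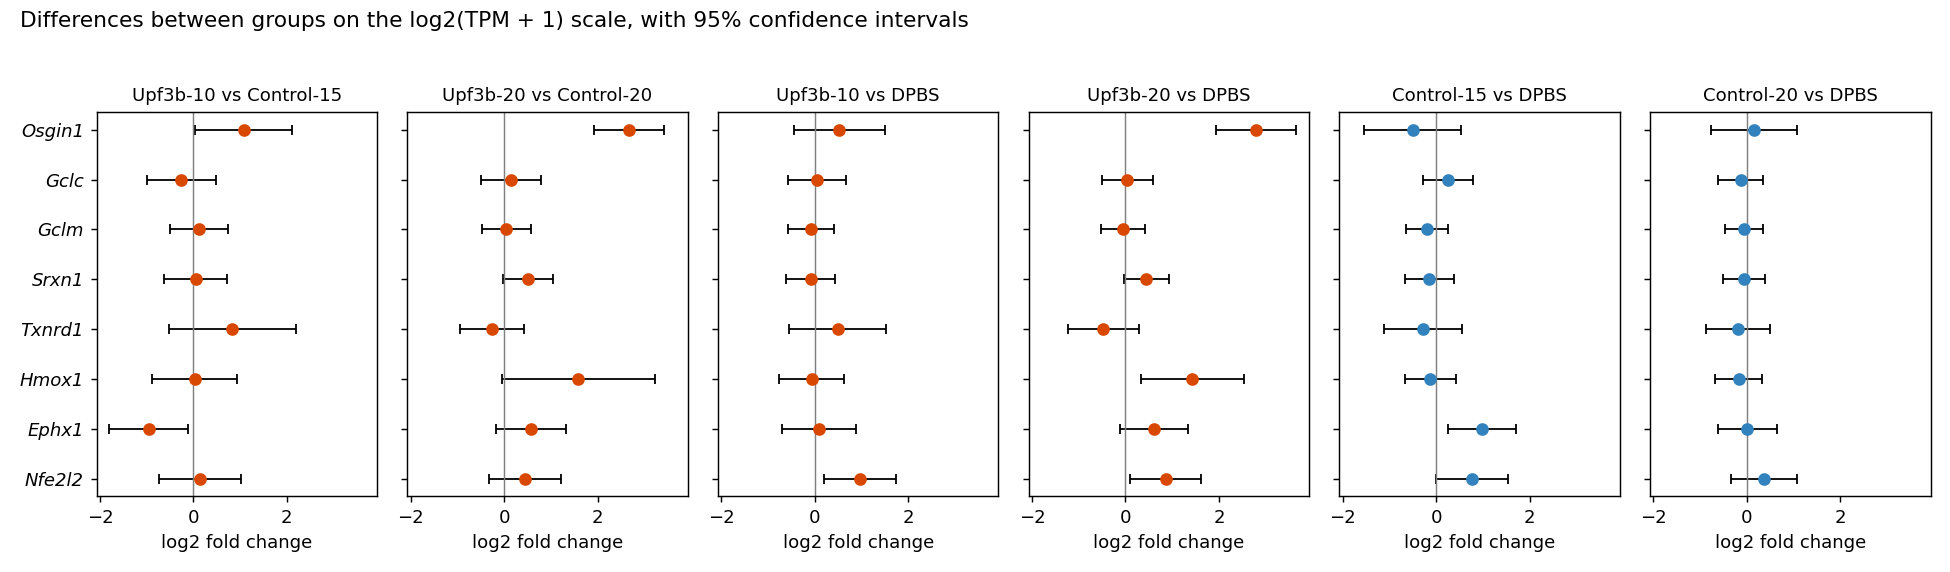
Difference between groups for the 8 tested genes on the log2(TPM + 1) scale (points) with 95% confidence intervals (bars), one panel per comparison. Osgin1 lies at 2.68 and 2.79 in the Upf3b-20 panels, and the interval of Gclm includes 0 in all 6 panels.

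Hmox1, the stress-induced enzyme that degrades heme to biliverdin, iron and carbon monoxide, was extreme in a single liver. Upf3b-20 replicates 1, 2, 4, 5 and 6 had 266, 3968, 276, 240 and 171 TPM. The lowest, median and highest values were 78.5, 151 and 178 TPM in Control-20 and 105, 130 and 304 TPM in DPBS. Of the Upf3b-20 mice, 4 were above all Control-20 mice, and replicate 6 was just below the highest of them. Against DPBS, replicate 2 alone was above the control range.

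The Hmox1 difference from Control-20 was 1.59 (SE 0.73, 95% interval -0.04 to 3.22) and fell to 0.84 without replicate 2. Against DPBS it was 1.43 (SE 0.52, 95% interval 0.33 to 2.53) and 0.66 without that mouse. In Upf3b-10 the values were 231, 191, 46.0, 129 and 218 TPM, and those of Control-15 were 164, 150, 130 and 104 TPM. The difference there was 0.03 (SE 0.42), and 0.50 without Upf3b-10 replicate 3, the mouse at 46.0 TPM.

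The liver with 3968 TPM of Hmox1 held other transcripts far above all other mice. These were chosen after their values had been seen. Gdf15, a secreted stress cytokine, stood at 10376 TPM there and at no more than 702 TPM elsewhere. The metal-binding Mt2 was at 20803 TPM against at most 1084 TPM, and the acute-phase gene Saa2 at 12829 TPM against at most 349 TPM. The sum of 4 cholangiocyte markers was 198 TPM in this mouse, of which Sox9 gave 180 TPM, and at most 28.7 TPM in the others. Osgin1 in this liver, at 473 TPM, was close to replicates 4 and 6 of the same group.

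**Figure D3:**
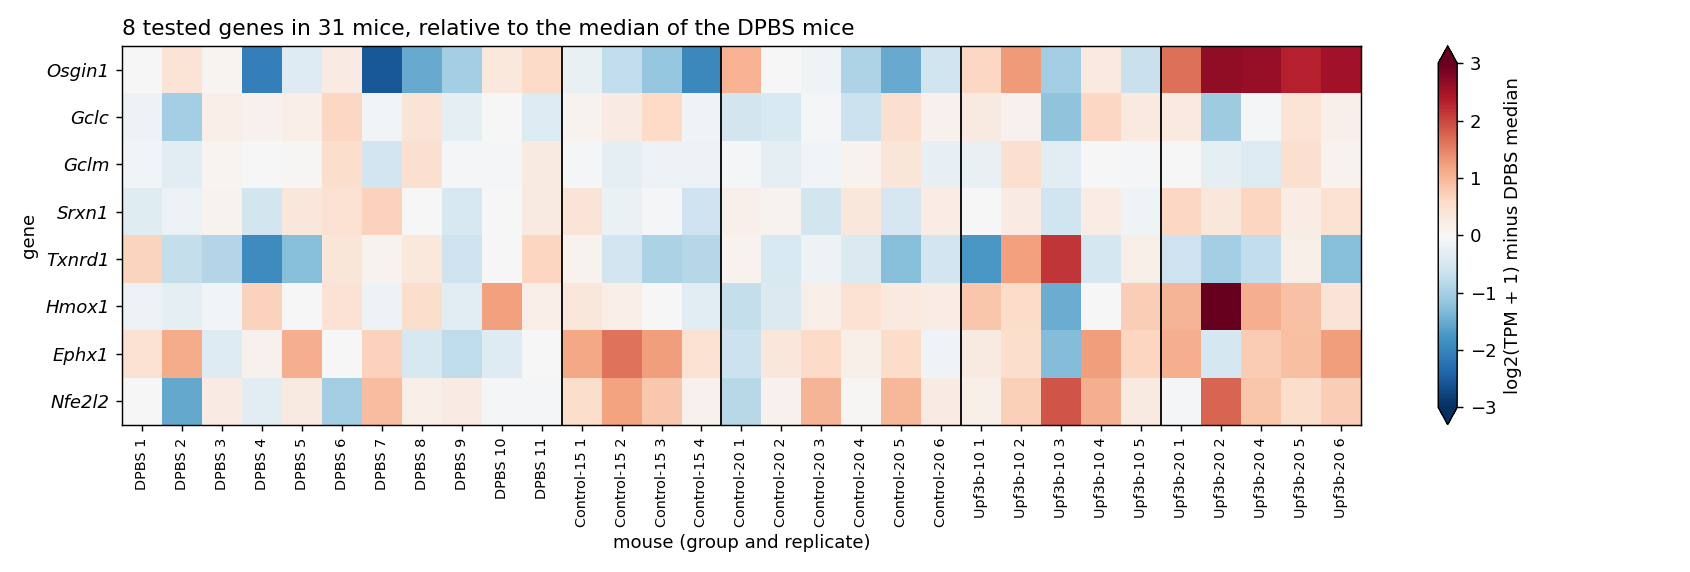
Level of the 8 tested genes in each of the 31 mice as log2(TPM + 1) minus the median of the DPBS mice (red higher, blue lower; black lines separate the groups). Osgin1 is high in all 5 Upf3b-20 mice, Hmox1 is far higher in Upf3b-20 replicate 2 than in any other mouse, and Upf3b-10 replicate 3 differs from its group in Txnrd1, Hmox1, Gclc and Ephx1.

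Srxn1, sulfiredoxin, which restores over-oxidized peroxiredoxins, was higher in Upf3b-20 by a margin within the spread of the mice. Its values were 207, 169, 208, 157 and 183 TPM in Upf3b-20 replicates 1, 2, 4, 5 and 6. The lowest, median and highest were 90.6, 146 and 169 TPM in Control-20 and 91.0, 133 and 216 TPM in DPBS. All 5 were above the median of each control group, and 4 were above every Control-20 mouse. None was above the highest DPBS mouse.

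The Srxn1 difference was 0.51 (SE 0.26, 95% interval -0.03 to 1.04) against Control-20 and 0.45 (SE 0.23, 95% interval -0.03 to 0.93) against DPBS. At 10 mg/kg the values were 133, 159, 88.2, 155 and 121 TPM, all within the Control-15 range of 86.7 to 174 TPM. The difference there was 0.05 (SE 0.32).

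Txnrd1, the cytosolic thioredoxin reductase that uses NADPH to keep thioredoxin reduced, had no such shift. Upf3b-20 mice had 47.5, 36.1, 43.7, 84.5 and 30.2 TPM in replicate order, and Control-20 ranged from 30.1 to 80.1 TPM around a median of 53.9 TPM. The difference was -0.26 (SE 0.33, 95% interval -0.94 to 0.43), or -0.15 without replicate 2. In Upf3b-10 the values were spread from 21.4 to 330 TPM, with 176 TPM in replicate 2 and the highest value in replicate 3, the mouse with the fewest reads. The difference from Control-15 was 0.83 (SE 0.63) with that mouse and 0.18 without it, and against DPBS it changed from 0.49 to -0.18.

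Gclc and Gclm, the catalytic and the modifier subunit of glutamate-cysteine ligase, the rate-limiting enzyme of glutathione synthesis, were level. Gclm stood at 129, 105, 96.0, 179 and 137 TPM in Upf3b-20 and at 103, 122 and 163 TPM (lowest, median and highest) in Control-20. The groups overlapped almost completely, and the difference was 0.05 (SE 0.25, 95% interval -0.48 to 0.57). Against DPBS it was -0.05 (SE 0.23, 95% interval -0.52 to 0.43). These intervals leave out a doubling of Gclm, which would be 1 on this scale.

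Gclc stood at 135, 51.8, 106, 146 and 122 TPM in Upf3b-20, with the lowest value in replicate 2, and at 69.9, 92.4 and 153 TPM (lowest, median and highest) in Control-20. Its difference was 0.15 (SE 0.31, 95% interval -0.50 to 0.80), and 0.39 without replicate 2. In Upf3b-10 the difference from Control-15 was -0.26 (SE 0.34) for Gclc, or 0.04 without replicate 3, and 0.13 (SE 0.29) for Gclm. Neither gene had a group whose range was apart from that of another group.

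Nqo1, the quinone reductase often used as a readout of NRF2 activity, was near the limit of detection. It lay between 0 and 4.60 TPM over the 31 mice, was listed at 0 in 10 of them, and reached 3 reads in 15. It was therefore under the filter and was not tested. Upf3b-20 replicates 1, 2, 4, 5 and 6 had 3.83, 2.11, 4.60, 0 and 3.28 TPM, and Upf3b-10 replicates 1 to 5 had 2.92, 1.74, 0.980, 2.60 and 2.06 TPM. At least 3 reads were present in 4 of 5 mice of each Upf3b group, in 2 of 6 Control-20 mice, 1 of 4 Control-15 mice and 4 of 11 DPBS mice. The level that 3 reads stand for ran from 0.406 to 2.94 TPM between mice, so these counts also depend on depth. The highest control value was 3.24 TPM, in Control-15 replicate 1, with the other 3 mice of that group at 0.

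G6pdx, glucose-6-phosphate dehydrogenase, which opens the NADPH-producing pentose phosphate pathway, was also under the filter and was not tested. It was listed at 0 in 18 of 31 mice and was highest at 9.29 TPM in a DPBS mouse. In each ASO group 1 mouse reached 3 reads, against 7 of 11 in DPBS, and these counts depend on depth as well. No more than 30 reads of it were present in any mouse.

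Ephx1, the microsomal epoxide hydrolase, varied most with the choice of control group. Upf3b-20 mice had 65.6, 20.9, 52.5, 57.6 and 74.3 TPM and Control-20 ranged from 19.0 to 46.0 TPM, so that 4 of 5 were above all Control-20 mice and replicate 2 was near the bottom. The difference was 0.57 (SE 0.36, 95% interval -0.18 to 1.32), and 0.86 without replicate 2. In the comparison at the lower dose the sign was opposite. Upf3b-10 had 36.7, 44.0, 11.8, 74.5 and 48.2 TPM, Control-15 had 69.6, 96.6, 74.1 and 42.1 TPM, and the difference was -0.95 (SE 0.40, 95% interval -1.80 to -0.11), or -0.60 without Upf3b-10 replicate 3. Against DPBS, with 17.4, 30.4 and 66.8 TPM, the Upf3b-10 difference was 0.09 (SE 0.39), or 0.50 without replicate 3. The Control-15 mice enter both of the comparisons in which Ephx1 was furthest from 0 at that dose, as described below for the control ASO.

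Nfe2l2, NRF2 itself, is regulated mainly at the level of the protein, which was not measured here. Its transcript stood at 27.9, 98.5, 52.0, 41.5 and 48.4 TPM in Upf3b-20, with the highest value in replicate 2. Control-20 had 15.7, 32.7 and 58.7 TPM and DPBS 9.22, 28.6 and 55.7 TPM (lowest, median and highest). The groups overlapped. The difference was 0.45 (SE 0.37, 95% interval -0.32 to 1.21) against Control-20 and 0.86 (SE 0.36, 95% interval 0.10 to 1.61) against DPBS, or 0.25 and 0.62 without replicate 2.

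In Upf3b-10 the Nfe2l2 values were 32.5, 48.0, 109, 61.9 and 34.5 TPM, with the highest in replicate 3. All 5 were above the DPBS median, and the difference from DPBS was 0.97 (SE 0.37, 95% interval 0.20 to 1.74), or 0.69 without replicate 3. From Control-15, at 31.6 to 67.7 TPM, it was 0.14 (SE 0.41), or -0.26 without that mouse. All 4 comparisons with DPBS, of both ASOs, had positive Nfe2l2 differences, and they share the same 11 DPBS mice.

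The control ASO was compared with buffer to see whether an ASO as such moved these genes. No gene passed an adjusted p of 0.05 in limma for Control-15 (0 of 8971, 0%, with 644 at an unadjusted p under 0.05) or Control-20 (0 of 9140, 0%, with 905). In Control-15, Ephx1 was at 0.99 above DPBS (SE 0.35, limma adjusted p = 0.691) and Nfe2l2 at 0.77 (SE 0.37, adjusted p = 0.694). All 4 Control-15 mice were above the DPBS median for both genes, and 3 were above every DPBS mouse for Ephx1. Neither passed the correction. Osgin1 differed by -0.51 in Control-15 (SE 0.49, limma adjusted p = 0.819) and by 0.16 in Control-20 (SE 0.44, adjusted p = 0.921). In Control-20 the 8 differences lay between -0.19 and 0.36.

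Sex was compared within the 6 female and 5 male DPBS mice, where 127 of 8998 genes (1.41%) were called. None of the 8 tested genes was. Osgin1 stood at 11.8, 16.9, 35.8, 56.2, 87.8 and 91.4 TPM in females and at 25.1, 73.7, 78.7, 98.1 and 111 TPM in males. The ranges overlapped, and the male minus female difference of 0.82 (SE 0.52, limma adjusted p = 0.617) did not pass the test. Txnrd1 had the next largest, 0.57 (SE 0.42, limma adjusted p = 0.652). Sex was a term in all other fits.

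The genes of the set did not follow one another closely from mouse to mouse. On the log2(TPM + 1) scale over 31 mice, Pearson's r of Osgin1 with the other 9 lay between -0.28 (G6pdx) and 0.51 (Srxn1), with 0.48 for Hmox1. With group means subtracted the values for Srxn1 and Hmox1 were 0.28 and 0.10. Points share libraries and groups, so these are descriptions and not tests.

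Outside the set, the profiles most like Osgin1 over 31 mice, among 8495 genes whose median over all mice reached 5 TPM, were H13 (r = 0.68), Dhrs7b, Zbp1, Prss8 and Tap1 (0.64). After subtraction of group means they were Actr2 (0.66), Psme3, Sfmbt1, Chdh and Rhot1 (0.64). For Srxn1 they were Homer3 (0.71), Zfp212, Fam195a, Cul7 and Tmem186, and after subtraction Zfp212 (0.75), Tstd1, Fam195a, Homer3 and Timm17a. For Nqo1, with few reads, they were Gtf2h5 (0.66), Zfas1, Maged1, Pex16 and Ces2e, and after subtraction Fadd (0.64), Jdp2, Idh2, Lamtor5 and Mfge8. No gene was on the list of both Osgin1 and Srxn1.

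Another 67 genes of the same program and its neighbours were followed by role: glutathione synthesis and peroxide reduction (10 genes), thioredoxin and peroxiredoxin (10), NADPH supply (7), quinone, carbonyl and xenobiotic detoxification with efflux (15), heme and iron handling (8), NRF2 regulators (13) and superoxide and hydrogen peroxide (4). The lists, too, were chosen with earlier results of these data known, so the calls and p-values of their genes are descriptive. Of the 67 genes, 56 were tested at 20 mg/kg. Against Control-20, 1 rose and 1 fell, beside 2.52% of all genes called, and 26 of 56 had a positive difference, beside 43.2% of all genes. The median difference was -0.03, beside -0.12 for all genes tested. Against DPBS, 0 rose and 1 fell, beside 1.13% of all genes called, and the median was 0.08, beside 0.05 for all genes.

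The gene that rose was Akr1a1, an aldehyde reductase. It stood at 287, 1713, 616, 697 and 471 TPM in Upf3b-20 and at 200, 218 and 490 TPM (lowest, median and highest) in Control-20. The difference was 1.20 (SE 0.30, limma adjusted p = 0.0379), and 0.93 without replicate 2, the mouse at 1713 TPM (adjusted p = 0.0442). The groups overlapped, and the call was lost in 10 of 18 other settings, with adjusted p between 0.0297 and 0.176. DPBS mice had between 106 and 1303 TPM.

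The gene that fell was Abcc2, the canalicular pump for glutathione and glucuronide conjugates. It stood at 160, 23.2, 157, 204 and 133 TPM in Upf3b-20, all below the lowest Control-20 mouse at 213 TPM. The difference was -1.64 (SE 0.42, limma adjusted p = 0.0477), and -1.16 without replicate 2 (adjusted p = 0.0209). The call was lost in 12 of 18 other settings, with adjusted p between 0.0157 and 0.134. Against DPBS it was -1.31 (SE 0.36, limma adjusted p = 0.0781).

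Against DPBS the gene that fell was Me1, cytosolic malic enzyme, a source of NADPH. It stood at 172, 50.5, 141, 151 and 148 TPM in Upf3b-20 and at 172, 271 and 355 TPM in DPBS (lowest, median and highest), with replicate 1 alone reaching the DPBS range. The difference was -1.08 (SE 0.26, limma adjusted p = 0.0377), but -0.80 without replicate 2, where the call was lost (adjusted p = 0.0879). Against Control-20 it was -1.03 (SE 0.32, limma adjusted p = 0.0840).

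By role, no other member of these lists passed the test at 20 mg/kg. The 6 tested genes of glutathione synthesis and peroxide reduction had a median difference of 0.29 against Control-20 and 5 of 6 were positive. The largest was Gpx4, a lipid peroxide reductase, at 1.002 (SE 0.28, limma adjusted p = 0.0625). The 10 thioredoxin and peroxiredoxin genes had a median of -0.12, the 7 NADPH supply genes 0.17, the 7 heme and iron genes -0.11, the 4 superoxide and hydrogen peroxide genes -0.32, and the 10 tested detoxification genes -0.20. Without Upf3b-20 replicate 2 the medians of the NADPH supply, heme and iron, superoxide and detoxification genes were 0.34, 0.02, -0.21 and 0.13, with Akr1a1 and Abcc2 still the genes called. The 12 tested NRF2 regulators lay between -0.92 and 0.17. Keap1, the NRF2 inhibitor, was at 66.5, 98.7, 89.8, 60.1 and 79.0 TPM in Upf3b-20, within the Control-20 range of 48.3 to 127 TPM.

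At 10 mg/kg against Control-15, 0 of 55 tested genes of these lists were called in limma, beside 0.295% of all genes, and 12 had an unadjusted p under 0.05, beside 15.8% of all genes. The median difference was -0.41, beside -0.03 for all genes tested, and 38 of 55 were negative, beside 51.6% of all genes. These values moved with Upf3b-10 replicate 3, the liver with the fewest reads. Its summed level of the thioredoxin and peroxiredoxin genes was 1207 TPM, against 2459 to 2888 TPM in the other mice of the group, and that of the heme and iron genes was 298 TPM against 484 to 851 TPM. Without it the median was -0.07 and 32 of 56 genes were negative, beside 0.04 and 47.6% for all genes.

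The 7 heme and iron genes were all negative at 10 mg/kg against Control-15, with a median of -0.63, and 6 of 7 were without that liver, with a median of -0.41. The most negative gene of the lists was Txnip, the thioredoxin-binding inhibitor, at -2.73 (SE 0.64, limma adjusted p = 0.0754). Without Upf3b-10 replicate 3 it was -1.94 (SE 0.39) and passed the test (limma adjusted p = 0.0228), the only gene of the lists to do so in that fit, beside 0.989% of all genes. Against DPBS the median over 56 genes was -0.10, or 0.05 without that liver. There 0 were called in limma, beside 0.376% of all genes, with 6 at an unadjusted p under 0.05, beside 8.27% of all genes.

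**Figure D4:**
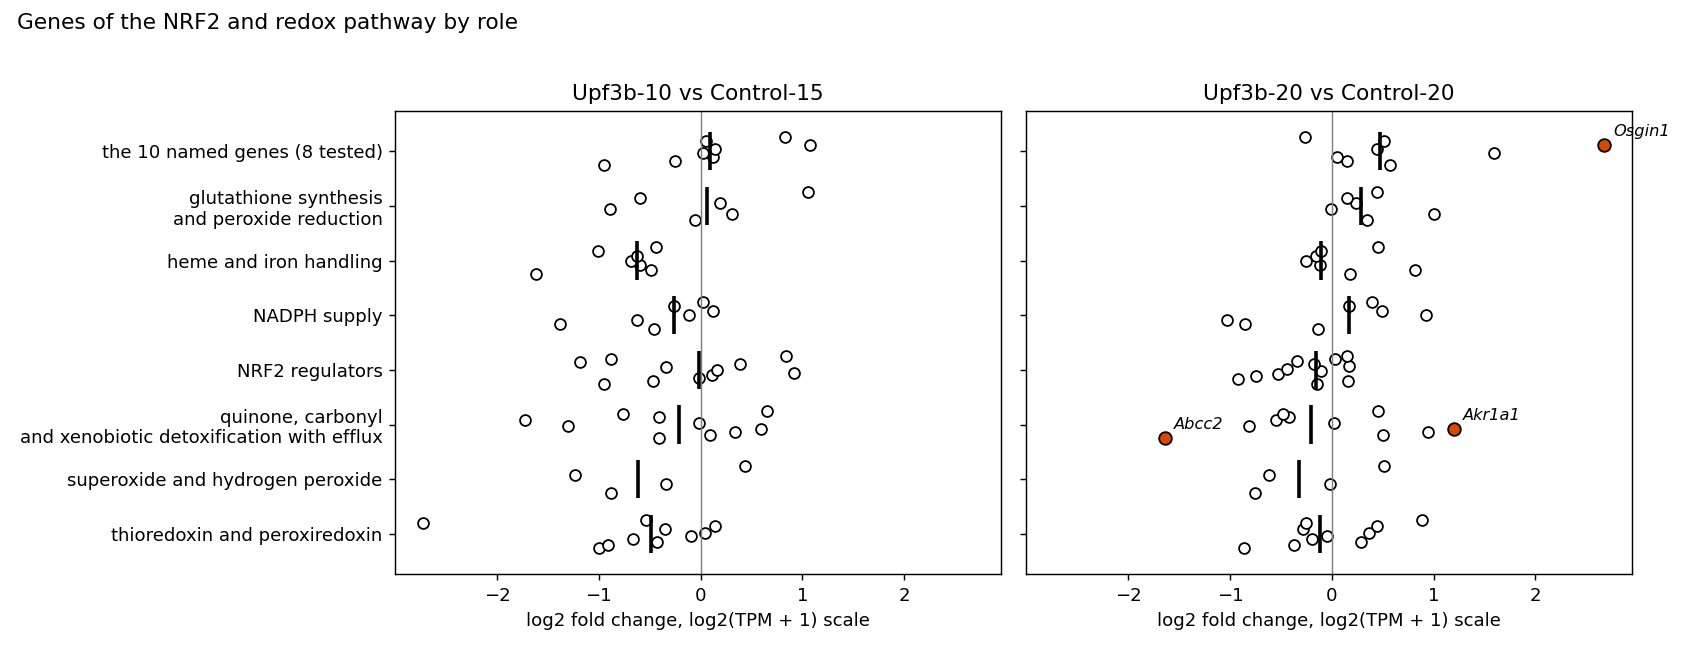
Difference between Upf3b and control ASO groups on the log2(TPM + 1) scale (x axis) for the 8 tested genes of the set and for the other pathway genes by role (points, with lines at medians; filled points have a limma adjusted p under 0.05). In the right panel Osgin1, Akr1a1 and Abcc2 are filled, at 2.68, 1.20 and -1.64, and in the left panel no point is.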

How the data were processed

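Mouse liver RNA was sequenced from 31 mice. The authors deposited TPM values for each gene symbol and mouse, from Salmon 0.7.2 (demultiplexing with bcl2fastq 2.17.1.14) on Ensembl cDNA of GRCm38.p4. How transcripts were summed to symbols is not given in the sources used here. The labels name a 3′ tag kit and the methods a fragment kit, so that levels were not compared between genes. Of 31198 symbols, 26 turned into dates were left out. Between 70.2% and 81.6% of values were whole multiples (within 0.02) of 1 read, too few for a count test. Depth was read from these steps. The floors cover counting error only.

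Groups were compared with limma 3.58.1 (R 4.3.3) on log2(TPM + 1), with sex as covariate, moderated variances with trend and robust options, a median of at least 5 TPM in 1 or more groups compared, and Benjamini-Hochberg adjustment over all genes tested. A gene was called at an adjusted p under 0.05. A fold change on this scale understates that of low genes. P-values and the intervals of differences measure the spread between mice. The study's own test, a negative binomial model with median-aggregated p-values, was not repeated since counts were not used here. The scripts were tested on simulated data.

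The genes and lists were chosen with earlier results of these data known. All 10 genes are described, but the difference of each tested gene is not given in the text for every comparison. Genes of the pathway lists were named where called (up to 6 per comparison), and 5 genes by Pearson's r with Osgin1, Srxn1 and Nqo1 with and without group means subtracted. Others named were chosen after their values were seen. Pseudocounts, filters, scaling, sex and the replicate number were varied, and mice of groups of up to 6 were left out in turn. Mice treated with the Upf1-ASO were not analysed here.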

Additional observations from a re-analysis of the deposited data

Results flagged for a closer look

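In 40 sets of values (10 genes in the 4 ASO groups of 4 to 6 mice), 6 values lay far from the rest of their group by Dixon's test at the 95% level. Chance gives this in about 1 in 20 groups if values follow a normal distribution. Where nearly all mice of a group are at 0, a few reads in 1 mouse are enough for a flag. The number of flags is therefore not read against that rate. The 11 DPBS mice were too many for this test. The first was Hmox1 at 3970 TPM in Upf3b-20 replicate 2, where the next mouse of the group had 276 TPM. The other 5 were low values above a group at or near 0: Nqo1 at 3.24 TPM in Control-15 replicate 1, and G6pdx at 0.827 TPM in Control-15 replicate 3, 1.56 TPM in Control-20 replicate 6, 1.03 TPM in Upf3b-10 replicate 5 and 3.07 TPM in Upf3b-20 replicate 2. The cause of the Hmox1 value was not tested.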

How the results depend on the processing

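The Osgin1 difference at 20 mg/kg ranged from 2.48 to 2.99 against Control-20 and from 2.50 to 2.90 against DPBS over the settings run. Counts of called genes over the whole table moved more. For Upf3b-10 against Control-15 the 27 genes became 17 and 56 with pseudocounts of 0.5 and 5, 5 without a filter, 10 at a median of 20 TPM and 10 without sex. For Upf3b-20 against Control-20 the 236 became 67 without a filter. Control-15 against DPBS had 2 without a filter, and Control-20 had 1 with a pseudocount of 5. A rule of 2-fold and unadjusted p of at most 0.01 gave 441, 584, 170 and 304 genes (Upf3b-10 against Control-15, Upf3b-20 against Control-20, and both against DPBS), 82 and 115 (Control-15 and Control-20 against DPBS), 60 (between Upf3b doses), 262 (sex) and 200 (difference of effects). In these settings the cause was not tested.

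Mice of groups of up to 6 were left out in turn, so that no DPBS mouse was except in the comparison of sexes. This gave 2 to 431 genes for Upf3b-10 against Control-15 (lowest without Control-15 replicate 3, highest without Upf3b-10 replicate 1, 91 without Upf3b-10 replicate 3) and 70 to 270 for Upf3b-20 against Control-20 (lowest without Control-20 replicate 3). Against DPBS it gave 24 to 33 for Upf3b-10, 56 to 114 for Upf3b-20 (lowest without replicate 6), 0 to 0 for Control-15 and 0 to 2 for Control-20. Between the Upf3b doses it gave 0 to 0, and for sex 86 to 134. Me1 lost its call in 4 of 12 settings, Akr1a1 in 10 of 18, Abcc2 in 12 of 18 and Pecam1 in 4 of 18, with the direction kept in each. The pathway lists without either liver that stood apart were added after seeing the data.

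In no comparison did all same-numbered pairs of mice correlate above 0.1 in their deviations from group and sex means. That rule cannot exclude partial pairing. For Upf3b-10 against Control-15, 2 of 4 pairs were above 0.1, with r up to 0.363. The mean r there was 0.064 for same-numbered pairs and -0.017 for other pairs. With the replicate number as a block the counts were 95, 45, 9 and 42 for the Upf3b groups in the order above, 2 and 0 for the control ASO and 0 between the Upf3b doses. Nqo1 and G6pdx, with at most 19 and 30 reads a mouse, were left out by the filter.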
